A study of Mus musculus with 6 samples.

Results

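The data described here are the read counts of 10 T-cell genes (*Cd3e*, *Cd3d*, *Cd3g*, *Cd8a*, *Cd8b1*, *Cd4*, *Lat*, *Cd28*, *Ctla4* and *Foxp3*) in CD11b+ cells purified from tumors. The genes were chosen by symbol from a table of 25701 genes, and all 10 were found and passed the filter on low counts. CD11b is an integrin of monocytes, macrophages and neutrophils, and most T cells do not carry it, so these genes serve as markers of T-cell RNA within the selected preparations. Poly-A RNA was sequenced from 3 MCT2 CO and 3 MCT2 KO preparations. The animals were male MCT2loxP/loxP; Cre+ mice on a C57BL/6 background, 8 weeks old at treatment. MCT2 KO mice received tamoxifen and MCT2 CO mice received vehicle, so deletion of the transporter and exposure to tamoxifen cannot be told apart. The Cre line is described as inducible and systemic, and the promoter that drives it is not given in the sources used here. TC1 cells, a mouse lung epithelial tumor line, were injected under the skin of the flank, and tumors were taken 24 days later. The tissue field of the sample records reads lung, which differs from the flank site given in the methods.

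T cells recognise peptides through a receptor whose variable chains carry no signalling tail of their own. The CD3 chains supply the signalling tails, the co-receptors CD4 and CD8 bind MHC molecules and bring in the kinase LCK, and the adaptor LAT gathers the proteins that carry the signal onward. CD28 adds a costimulatory signal, CTLA-4 competes with it for the same ligands, and FOXP3 is the transcription factor of regulatory T cells. *Cd4* and *Cd8a* RNA is also found in some dendritic cells and *Cd4* in some macrophages, whereas the CD3 chains and CD8β are close to restricted to the T lineage.

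Total counts ranged from 24863611 to 31713704 per library. Levels are given as CPM, in which the counts of a library are scaled to a fixed total, after adjustment of the library sizes by the TMM method. The targeted gene, *Slc16a7*, which encodes MCT2, stood at 16.0, 11.0 and 11.2 CPM in MCT2 CO replicates 1 to 3 and at 8.22, 4.97 and 5.34 CPM in MCT2 KO replicates 1 to 3. The groups did not overlap, with an estimate of -1.05 on the log2 scale (standard error 0.24; edgeR adjusted p = 0.370). DESeq2 called the gene lower in MCT2 KO, with an adjusted p of 0.00862 on all genes with a count, whereas edgeR did not call it. The macrophage genes *Lyz2* and *C1qa* reached means of 1372 and 1280 CPM over all libraries. *Col3a1*, a collagen gene of fibroblasts, reached a mean of 1185 CPM and stood at 2028 CPM in MCT2 CO replicate 3, above *Lyz2* (886 CPM) and *C1qa* (949 CPM) in that library, so RNA of stromal cells was also abundant. The gene of CD11b itself, *Itgam*, had 1 count over all libraries and so cannot serve as a check on the selection. Of its exons, 99.1% lie inside the span of another listed gene, and whether this removed its counts was not tested.

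The T-cell genes did not separate the groups. What set the preparations apart was 1 MCT2 KO library with very little T-cell RNA and another with more than any other. MCT2 KO replicate 2 had the lowest level of the 6 libraries for 10 of the 10 genes, which was the case for 22.7% of the 13485 genes tested. MCT2 KO replicate 3 had the highest level for 7 of the 10, against 12.2% of all genes tested. The median over the 10 genes of the ratio of the highest to the lowest MCT2 KO library was 10.1, against 1.82 for the same ratio among MCT2 CO libraries. Over all genes tested, the medians were 1.22 and 1.20. In MCT2 KO this ratio was at least 4 for 7 of the 10 genes, against 1.22% of all genes tested. In MCT2 CO it was at least 4 for none of them, against 0.727%. In bulk RNA, fewer T cells and less RNA per T cell cannot be told apart.

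**Figure D1:**
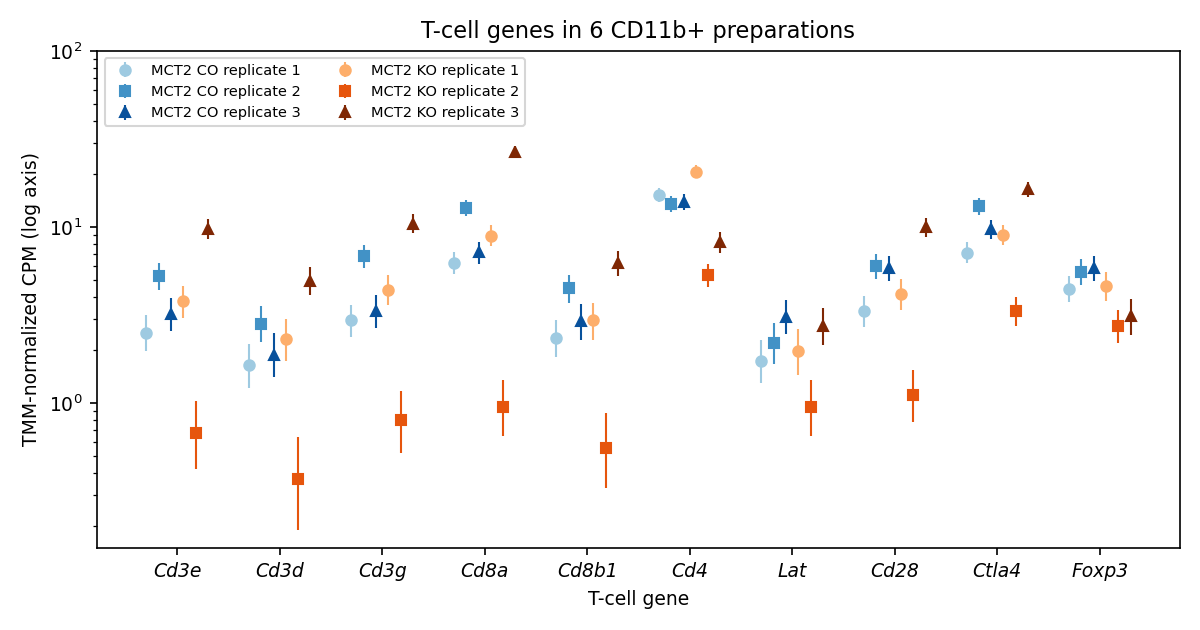
Level of each T-cell gene in every library, in TMM-normalized CPM on a log axis, with symbols for the 6 libraries and bars for the exact 95% Poisson interval of the count. MCT2 KO replicate 2 lies lowest for every gene, and MCT2 KO replicate 3 lies highest for all but *Cd4*, *Lat* and *Foxp3*.

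*Cd3e* (ENSMUSG00000032093, minus strand of chromosome 9 of GRCm38, 44998740 to 45009627) encodes the CD3 epsilon chain. In order of replicate number, it had 75, 136 and 85 counts in MCT2 CO and 90, 22 and 242 counts in MCT2 KO, or 2.5, 5.23 and 3.20 against 3.77, 0.675 and 9.72 CPM. The lowest and the highest library were thus both MCT2 KO, 14.4-fold apart, with the MCT2 CO libraries between them. Counting error was smaller than this gap, since the exact Poisson intervals were 0.423 to 1.02 CPM in MCT2 KO replicate 2 and 8.54 to 11.0 CPM in MCT2 KO replicate 3. These intervals cover counting error alone.

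*Cd3d* (ENSMUSG00000032094, plus strand of chromosome 9, 44981786 to 44987339) and *Cd3g* (ENSMUSG00000002033, minus strand, 44969572 to 44980431) encode the delta and gamma chains and lie head to head. *Cd3d* had 1.63, 2.81 and 1.88 CPM in MCT2 CO and 2.31, 0.368 and 4.94 CPM in MCT2 KO. *Cd3g* had 2.94, 6.81 and 3.31 CPM in MCT2 CO and 4.40, 0.798 and 10.4 CPM in MCT2 KO. The lowest value, 12 counts of *Cd3d* in MCT2 KO replicate 2, was also the smallest count of any of the 10 genes in any library.

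The CD3 chains kept nearly fixed proportions while their amount changed. The sum of the CD3 chains ranged 13.6-fold, from 1.84 CPM in MCT2 KO replicate 2 to 25.1 CPM in MCT2 KO replicate 3. Over the same libraries, the ratio of *Cd3d* to *Cd3e* counts ranged from 0.508 to 0.653 and that of *Cd3g* to *Cd3e* from 1.03 to 1.30. Per kilobase of exon, the means over all libraries were 1.46 CPM for *Cd3g*, 1.28 for *Cd3d* and 1.03 for *Cd3e*. Values per kilobase, here and below, rest on annotated exon lengths, and the feature type that was counted is not given.

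Because the CD3 genes moved together, their promoters are shown, from 250 bases before the start site to 50 after it. The sequences are those of RefSeq on GRCm38.p6, in which 7 of the 10 genes had an entry, and each is written 5′ to 3′ on the strand of the gene. *Cd3e* lies at chr9:45009562-45009861 (minus strand), *Cd3d* at chr9:44981536-44981835 (plus strand) and *Cd3g* at chr9:44980382-44980681 (minus strand). Capitals mark exact matches, on either strand, to short motifs of factor families used in T cells. The motif searched was AGGAAG for ETS, TGTGGT for RUNX, AGATAA for GATA and CTTTGA for TCF/LEF factors.
Cd3e: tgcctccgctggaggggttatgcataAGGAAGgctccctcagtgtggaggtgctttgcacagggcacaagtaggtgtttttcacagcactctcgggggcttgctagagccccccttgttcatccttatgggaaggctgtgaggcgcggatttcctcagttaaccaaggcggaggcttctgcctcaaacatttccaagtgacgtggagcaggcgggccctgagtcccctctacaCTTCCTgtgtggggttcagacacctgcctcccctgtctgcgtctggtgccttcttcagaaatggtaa
Cd3d: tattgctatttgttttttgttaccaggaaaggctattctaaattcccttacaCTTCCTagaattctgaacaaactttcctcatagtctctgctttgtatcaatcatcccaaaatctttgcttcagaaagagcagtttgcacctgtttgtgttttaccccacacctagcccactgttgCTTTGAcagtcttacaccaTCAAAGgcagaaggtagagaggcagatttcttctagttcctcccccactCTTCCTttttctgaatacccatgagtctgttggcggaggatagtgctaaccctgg
Cd3g: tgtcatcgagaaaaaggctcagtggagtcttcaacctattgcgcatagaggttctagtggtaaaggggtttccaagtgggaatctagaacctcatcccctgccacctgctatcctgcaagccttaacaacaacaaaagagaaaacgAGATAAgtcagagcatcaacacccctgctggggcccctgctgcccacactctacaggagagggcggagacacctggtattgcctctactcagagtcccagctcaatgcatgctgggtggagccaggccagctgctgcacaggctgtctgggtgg

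The ETS motif occurred in *Cd3e*, at -224 and -17 from the start site, and in *Cd3d*, at -198 and -5. *Cd3d* also held the TCF/LEF motif at -73 and -54, and *Cd3g* held the GATA motif at -104. No matches overlapped, and none of these windows held the RUNX motif. Among all 32851 promoters of this length, the ETS motif was found in 35.4%, the TCF/LEF motif in 16%, the RUNX motif in 16.8% and the GATA motif in 11.2%. The window of *Cd8a* held none of these motifs. Matches also occurred outside the CD3 genes. *Lat* held the ETS motif at -114 and 3 and the RUNX motif at -5. *Ctla4* held the ETS motif at -59 and the TCF/LEF motif at 28. *Foxp3* had a window with the ETS motif at -226 and the GATA motif at -47, and another with no match. A match is a description of the letters and not a site of binding.

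The CD8 genes followed the CD3 genes. *Cd8a* (ENSMUSG00000053977, plus strand of chromosome 6, 71373427 to 71379173), the alpha chain, had 187, 333 and 190 counts in MCT2 CO and 212, 31 and 663 counts in MCT2 KO. This came to 6.24, 12.8 and 7.15 CPM in MCT2 CO and 8.89, 0.952 and 26.6 CPM in MCT2 KO. The 28.0-fold gap between MCT2 KO replicates 3 and 2 was the widest of the 10 genes.

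*Cd8b1* (ENSMUSG00000053044, plus strand of chromosome 6, 71322788 to 71337494), the beta chain of the T-cell form of CD8, had 2.34, 4.46 and 2.90 CPM in MCT2 CO and 2.94, 0.553 and 6.23 CPM in MCT2 KO. Its count per CD3 count was nearly even, at 0.330, 0.301 and 0.345 in MCT2 CO and 0.280, 0.30 and 0.248 in MCT2 KO. *Cd8a* per CD3 count was between 0.848 and 0.882 in 4 libraries, 0.517 in MCT2 KO replicate 2 and 1.06 in MCT2 KO replicate 3. The amount of CD8 RNA thus tracked that of CD3 across libraries of both groups.

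*Cd4* did not follow. *Cd4* (ENSMUSG00000023274, minus strand of chromosome 6, 124864692 to 124888221) encodes the co-receptor for MHC class II. It had 454, 350 and 368 counts in MCT2 CO and 491, 173 and 204 counts in MCT2 KO, or 15.1, 13.5 and 13.9 against 20.6, 5.31 and 8.19 CPM. The MCT2 CO libraries lay close together, and MCT2 KO replicate 3, the library richest in CD3, had less *Cd4* than any of them. Per CD3 count, *Cd4* ranged 8.82-fold, from 0.327 in MCT2 KO replicate 3 to 2.88 in MCT2 KO replicate 2. The ratio of *Cd8a* to *Cd4* counts was 0.412, 0.951 and 0.516 in MCT2 CO and 0.432, 0.179 and 3.25 in MCT2 KO, so MCT2 KO replicates 2 and 3 marked its ends.

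Markers of cells that can carry *Cd4* RNA also differed between libraries. The summed level of 11 macrophage genes, 1 of them *Itgam* with almost no counts, was highest in MCT2 KO replicate 1 (10310 CPM), where *Cd4* was highest too, and lay between 5409 and 7296 CPM elsewhere. The sum of 8 dendritic-cell genes was also highest in MCT2 KO replicate 1 (69.1 CPM) and lowest in MCT2 KO replicate 2 (30.4 CPM), with 52.4 to 61.5 CPM in MCT2 CO and 56.9 CPM in MCT2 KO replicate 3. The part of these cells in the level of *Cd4* was not tested.

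*Lat* (ENSMUSG00000030742, minus strand of chromosome 7, 126363824 to 126369570) was the least abundant of the 10 genes per kilobase of exon, with a mean of 0.763 CPM. It had 1.73, 2.19 and 3.09 CPM in MCT2 CO and 1.97, 0.952 and 2.73 CPM in MCT2 KO. Its highest level was in MCT2 CO replicate 3, and its MCT2 KO libraries spanned 2.87-fold. LAT is also used by NK and mast cells.

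*Cd28* (ENSMUSG00000026012, plus strand of chromosome 1, 60716800 to 60773359) had 3.30, 5.96 and 5.79 CPM in MCT2 CO and 4.15, 1.11 and 9.92 CPM in MCT2 KO. *Ctla4* (ENSMUSG00000026011, plus strand of chromosome 1, 60887000 to 60915832) had 7.14, 13.0 and 9.67 CPM in MCT2 CO and 9.01, 3.32 and 16.3 CPM in MCT2 KO. For both genes MCT2 KO replicate 2 was lowest and MCT2 KO replicate 3 highest, 8.98-fold apart for *Cd28* and 4.92-fold for *Ctla4*. Per kilobase of exon *Ctla4* was the most abundant of the 10 genes, with a mean of 4.18 CPM, followed by *Cd4* at 3.16 and *Cd8a* at 2.87. Their ligands on antigen-presenting cells showed no such gap. *Cd86* ranged from 190 to 298 CPM and *Cd80* from 170 to 231 CPM over all libraries, with log2 fold changes of -0.074 (standard error 0.18) and 0.014 (standard error 0.13).

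*Foxp3* (ENSMUSG00000039521, plus strand of chromosome X, 7573644 to 7595245) had 133, 144 and 155 counts in MCT2 CO and 110, 89 and 77 counts in MCT2 KO. This came to 4.44, 5.54 and 5.83 CPM in MCT2 CO and 4.61, 2.73 and 3.09 CPM in MCT2 KO, with MCT2 KO replicate 1 just above the lowest MCT2 CO library. MCT2 KO replicates 2 and 3, at opposite ends for CD3, had nearly the same *Foxp3* level. *Foxp3* per CD3 count was 0.627, 0.373 and 0.695 in MCT2 CO and 0.440, 1.48 and 0.123 in MCT2 KO, a 12-fold range. Of its exons, 37.2% lie inside the spans of the neighbors *Ccdc22* and *Ppp1r3f*. *Ccdc22* had 36.9 ± 3.10 CPM in MCT2 CO and 43.3 ± 1.20 CPM in MCT2 KO (SD, n = 3), and *Ppp1r3f* had 8.47 ± 1.46 and 8.0 ± 1.60 CPM (SD, n = 3). Whether reads of the neighbors reached the *Foxp3* count, or *Foxp3* reads in the shared stretches went uncounted, was not tested.

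**Figure D2:**
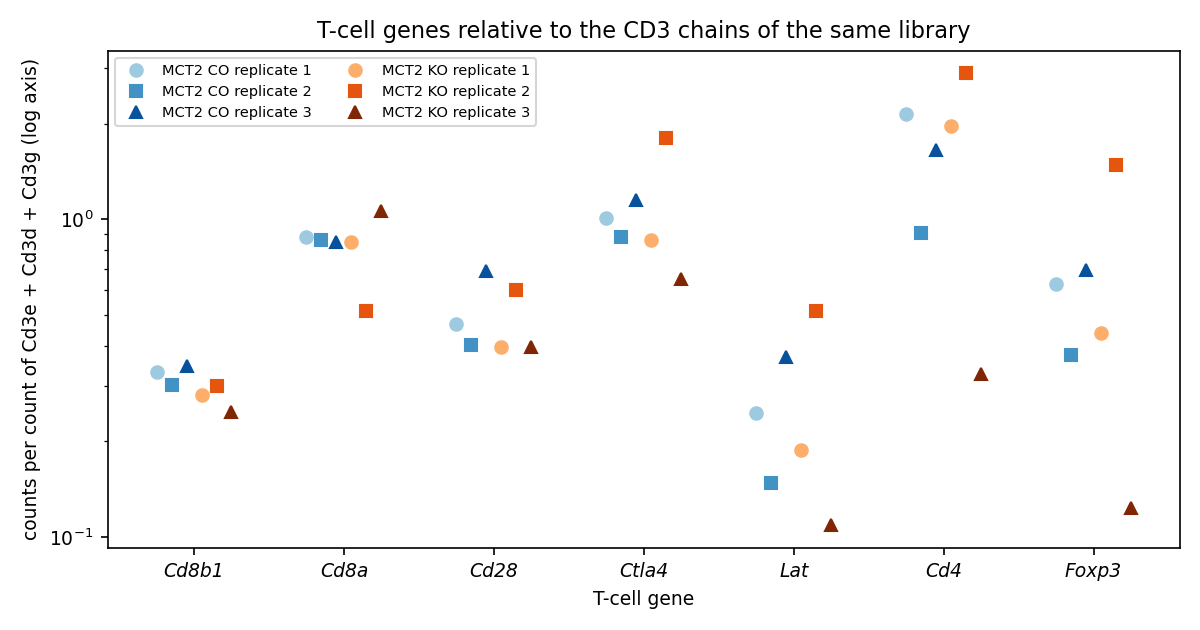
Counts of each gene divided by the summed counts of *Cd3e*, *Cd3d* and *Cd3g* of the same library, on a log axis, with symbols for the 6 libraries. *Cd8b1* lies between 0.248 and 0.345, whereas *Cd4* and *Foxp3* spread 8.82-fold and 12-fold, with MCT2 KO replicate 2 at the top and MCT2 KO replicate 3 at the bottom.

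Other genes used by regulatory T cells did not share the *Foxp3* pattern between those libraries. *Il2ra*, the alpha chain of the IL-2 receptor, was at 5.07 CPM in MCT2 KO replicate 2 and 10.9 CPM in MCT2 KO replicate 3. *Ikzf2* was at 4.79 and 9.16 CPM in the same libraries, and *Tnfrsf18*, which encodes GITR, at 2.61 and 5.95 CPM. These genes are also used by activated T cells and other leukocytes.

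The comparison of MCT2 KO with MCT2 CO was made with the quasi-likelihood test of edgeR on all 13485 genes. A gene was called where its adjusted p did not exceed 0.05 and its log2 fold change was 0.58 or more in size. None of the 10 genes was called, and the call rate over all genes tested was 0%. At an unadjusted p under 0.05 there was 1 of the 10, *Foxp3*, against 9.37% of all genes tested in either direction and 5.6% with a lower level in MCT2 KO. DESeq2 called 0 of the 10 both when fitted to the 18508 genes with a count, where it called 0.705% of the 13484 to which it gave an adjusted p, and on the filtered genes, where it called 0.586%. Of the 10 edgeR estimates, 5 were above and 5 below 0, with a median log2 fold change of -0.0050 beside 0 for all genes tested. The 3 MCT2 KO values overlapped the 3 MCT2 CO values for every one of the 10 genes, where 15.8% of all genes tested did not overlap and 8.77% did so with MCT2 KO lower.

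The estimate for *Cd3e* was 0.36 on the log2 scale (standard error 0.74, 95% interval -1.35 to 2.07; edgeR adjusted p = 0.902). For *Cd8a* it was 0.47 (standard error 0.86, interval -1.50 to 2.44; edgeR adjusted p = 0.888). The intervals hold a more than 2-fold difference in either direction, so the design did not exclude a sizeable change of CD3 or CD8 in either sense. The estimates of *Cd3d*, *Cd3g*, *Cd8b1*, *Cd28* and *Ctla4* lay between -0.067 and 0.25, with standard errors from 0.49 to 0.73. Those of *Cd4* and *Lat* were -0.33 (standard error 0.42) and -0.32 (standard error 0.40). By limma-voom, the estimates of all 10 T-cell genes were below 0, from -0.64 for *Foxp3* to -0.36 for *Ctla4*. With the replicate number as a block in edgeR, all 10 were below 0 as well, from -0.62 for *Foxp3* to -0.028 for *Cd3e*. None was called in either fit.

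*Foxp3* had the narrowest error, with 5.27 ± 0.736 CPM in MCT2 CO and 3.48 ± 0.998 CPM in MCT2 KO (SD, n = 3). Its log2 fold change was -0.60 (standard error 0.24, interval -1.15 to -0.060; edgeR adjusted p = 0.502). By the exact two-sided permutation test the difference had p = 0.2, where 3 libraries against 3 allow 0.1 at the smallest. Leaving out any 1 library, the estimate stayed between -0.85 and -0.45.

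The direction of the other estimates hung on single MCT2 KO libraries. Without MCT2 KO replicate 2, the log2 fold change was 0.90 for *Cd3e*, 1.03 for *Cd8a* and 0.49 for *Cd28*, and all genes but *Foxp3* were above 0. Without MCT2 KO replicate 3, it was -0.74 for *Cd3e*, -0.85 for *Cd8a* and -0.95 for *Cd28*, and all 10 genes were below 0. None was called in either fit. Single MCT2 CO libraries changed the sign of some estimates as well. Without MCT2 CO replicate 2, *Cd8b1* was at 0.295 and *Ctla4* at 0.18, and without MCT2 CO replicate 1, *Cd28* was at -0.23. The summed level of the 10 genes was 47.4, 72.3 and 56.7 CPM in MCT2 CO and 62.6, 16.8 and 98.2 CPM in MCT2 KO, with group means of 58.8 ± 12.6 and 59.2 ± 40.8 CPM (SD, n = 3). The means were nearly equal, and the SD in MCT2 KO was the larger.

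**Figure D3:**
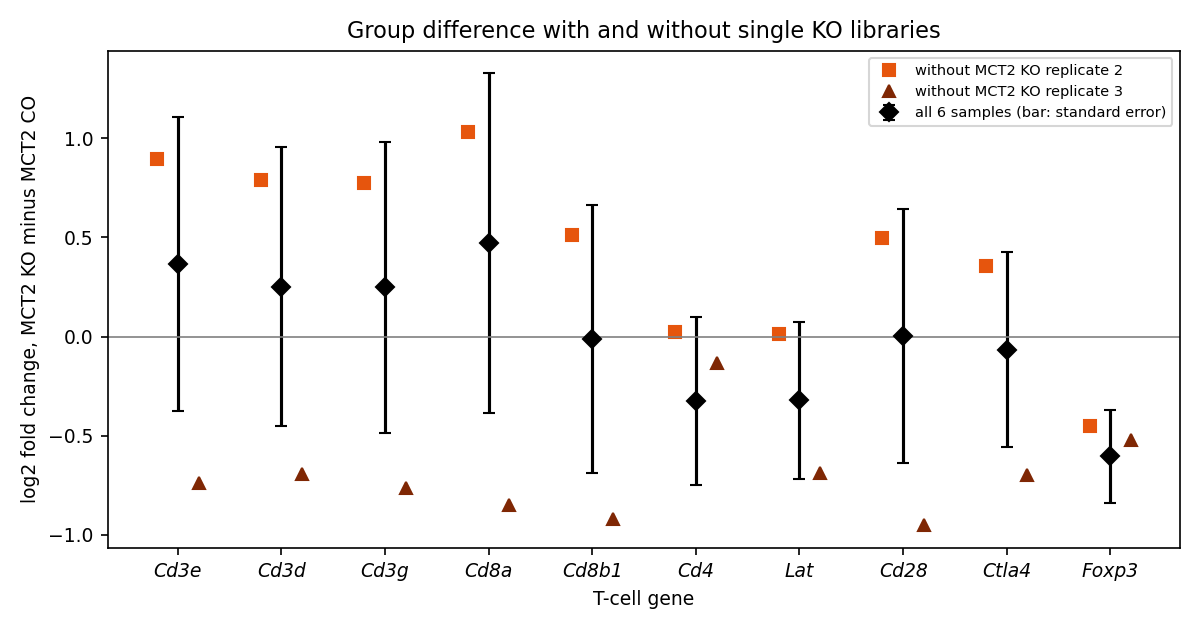
Log2 fold change of each T-cell gene, MCT2 KO minus MCT2 CO, from all 6 libraries (diamonds, with bars for the standard error) and from fits that leave out MCT2 KO replicate 2 (squares) or MCT2 KO replicate 3 (triangles). For *Cd3e* the estimate moves from 0.36 to 0.90 or to -0.74, whereas *Foxp3* is below 0 in all 3 fits.

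Further genes of the T-cell receptor and the T lineage were read from the same fit. Of 56 such genes, 53 were in the table and 45 passed the filter. None was called higher or lower, and DESeq2 called 0 as well. In edgeR, 3 of the 45 had an unadjusted p under 0.05, against 9.37% of all genes tested. The median log2 fold change was -0.042, beside 0 for all genes tested. MCT2 KO replicate 2 was lowest for 35 of the 45 and MCT2 KO replicate 3 highest for 28. Both held for 25 of the 45, against 3.4% of all genes tested. The groups did not overlap for 4 of the 45, *Trdc*, *Tcf7* and *Lag3* among them, against 15.8% of all genes tested. Of the 8 left out by the filter, *Lcp2* and *Cd27* had 0 counts, and all of their exons fall within other listed genes.

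The receptor's own constant regions behaved like CD3. *Trac*, of the alpha chain, had 4.50, 7.0 and 4.03 CPM in MCT2 CO and 6.79, 0.982 and 8.52 CPM in MCT2 KO. *Trbc1* and *Trbc2*, of the beta chain, spanned 4.37-fold and 5.74-fold in MCT2 KO, though their sequences are alike and reads can be split between them. *Trdc*, of the delta chain of γδ T cells, had 4 to 15 counts per library, or 0.476 ± 0.0909 CPM in MCT2 CO and 0.206 ± 0.0855 CPM in MCT2 KO (SD, n = 3). The estimate was -1.23 on the log2 scale (standard error 0.43; edgeR adjusted p = 0.475), with no overlap between the groups.

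The most abundant genes of the signalling list moved less between the MCT2 KO libraries. *Fyb*, an adaptor also used by myeloid cells, stood at 398, 182 and 347 CPM in MCT2 KO and at 336, 297 and 239 CPM in MCT2 CO. *Grap2* had 108, 34.4 and 103 CPM in MCT2 KO and 98.5, 86.6 and 52.8 CPM in MCT2 CO. *Ptpn22*, a phosphatase of lymphoid and myeloid cells, ranged from 28.2 to 66.3 CPM and *Fyn*, a kinase of the SRC family, from 43.6 to 72.1 CPM over all libraries. MCT2 KO replicate 2 was the lowest library for each of these.

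Among the transcription factors, *Ets1* and *Runx3* were at 167 ± 11.5 and 140 ± 19.0 CPM in MCT2 CO and at 154 ± 21.9 and 159 ± 37.6 CPM in MCT2 KO (SD, n = 3). *Tcf7* was at 18.6 ± 0.464 CPM in MCT2 CO and 16.7 ± 1.18 CPM in MCT2 KO (SD, n = 3), and MCT2 KO replicate 2, at 18.0 CPM, was not low. *Ikzf3* had 2.01, 1.32 and 6.19 CPM in MCT2 KO. Of the co-regulatory receptors the most abundant was *Lag3*, an inhibitory receptor for MHC class II, at 17.5, 17.4 and 10.9 CPM in MCT2 CO and 29.1, 18.8 and 30.1 CPM in MCT2 KO. Every MCT2 KO library was above every MCT2 CO library, with an estimate of 0.76 on the log2 scale (standard error 0.23; edgeR adjusted p = 0.430). A lack of overlap, in either direction, held for 15.8% of all genes tested.

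The genes whose pattern over the 6 libraries was most like that of the CD3 chains were sought among all genes tested. Likeness was the root mean square difference of log2 CPM from the mean CD3 profile, each gene centred on its own mean. The 5 nearest genes outside the 10 were *Sv2c* (0.20), *Themis* (0.22), *Tox* (0.22), *Nkg7* (0.24) and *Fasl* (0.27). *Themis* and *Tox* encode regulators of T-cell development, *Nkg7* a granule membrane protein of cytotoxic cells, *Fasl* the ligand of the death receptor FAS and *Sv2c* a synaptic vesicle protein. *Themis* had 0.767, 1.46 and 1.39 CPM in MCT2 CO and 1.34, 0.184 and 3.33 CPM in MCT2 KO. *Nkg7* had 5.54, 11.2 and 7.19 CPM in MCT2 CO and 6.29, 2.09 and 19.0 CPM in MCT2 KO.

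By the same measure over 13485 genes, *Cd8b1* ranked 4 behind the CD3 chains themselves, *Cd28* 10, *Cd8a* 14, *Ctla4* 22 and *Lat* 128. *Cd4* ranked 1465 and *Foxp3* 2282. The points compared are the same 6 libraries, so depth and the makeup of each preparation are shared by all genes.

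**Figure D4:**
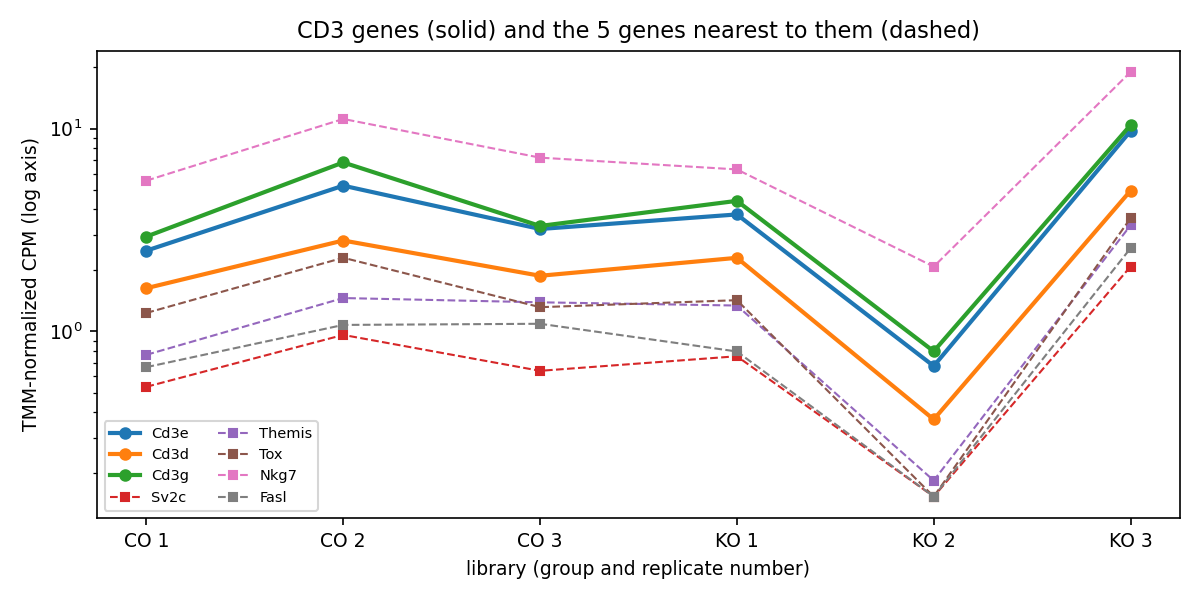
Level in CPM on a log axis of the CD3 genes (solid lines) and of the 5 genes nearest to them (dashed lines) in each library. Lines join the values of a gene across libraries, which have no order, and all 8 genes are lowest in MCT2 KO replicate 2 and highest in MCT2 KO replicate 3.

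Markers of other cells were summed by library. The sum of 11 B-cell genes was 37.4 CPM in MCT2 KO replicate 2, against 96.8 to 112 CPM in MCT2 CO and 116 and 124 CPM in the other MCT2 KO libraries. *Ighm*, which made up most of this sum, was at 19.5 CPM in MCT2 KO replicate 2 and between 62.5 and 95 CPM elsewhere. The sum of 10 NK and cytotoxic genes, which activated CD8 T cells also use, was highest in MCT2 KO replicate 3 at 146 CPM, with 72.3 and 75.4 CPM in the other MCT2 KO libraries and 63.8 to 107 CPM in MCT2 CO. Of these, *Gzmb* had 18.5, 25 and 42.7 CPM and *Klrk1* 21.3, 12.7 and 33.2 CPM in MCT2 KO.

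The sum of 8 neutrophil genes was lowest in MCT2 KO replicate 2, at 62.5 CPM. It was 178 and 132 CPM in MCT2 KO replicates 1 and 3 and 79.9 to 101 CPM in MCT2 CO. The low sum came from *Csf3r*, at 41.1 CPM there and 70.9 to 94.3 CPM in MCT2 CO. Of the 7 neutrophil genes tested, MCT2 KO replicate 2 was lowest for 2, against 22.7% of all genes tested. For 5 of the 7, *S100a9* among them, it was above every MCT2 CO library. The macrophage sum in MCT2 KO replicate 2, 6551 CPM, lay within the MCT2 CO range of 5409 to 7296 CPM. For 9 tumor, fibroblast and endothelial genes, mostly *Col3a1*, it was 967 CPM, beside 1012 CPM in MCT2 KO replicate 3 and 1358 to 2321 CPM in MCT2 CO. Several of these lists also leaned one way between the groups, though edgeR called 0 genes in each. Of 10 macrophage genes tested, 10 had estimates above 0, with a median log2 fold change of 0.28, and the mean sums were 8027 CPM in MCT2 KO and 6325 CPM in MCT2 CO. The tumor and stroma sum was lower in every MCT2 KO library, at 967 to 1183 CPM, and DESeq2 called 2 of its 6 tested genes. Among the NK and cytotoxic genes DESeq2 called 2 of 10, which went opposite ways. *Gzma*, a granzyme, had an estimate of -1.09 on the log2 scale (standard error 0.22; edgeR adjusted p = 0.370), and *Prf1*, which encodes perforin, one of 1.12 (standard error 0.34; edgeR adjusted p = 0.430). Of 8 dendritic-cell genes, 6 had estimates below 0, with a median of -0.25, and DESeq2 called 0. Of 7 neutrophil genes tested, 6 had estimates above 0, with a median log2 fold change of 1.87, and DESeq2 called 4. *S100a9*, a calcium-binding protein of neutrophils, had 3.50, 2.58 and 4.18 CPM in MCT2 CO and 20.9, 9.12 and 7.63 CPM in MCT2 KO. Of 9 B-cell genes tested, 8 had estimates below 0, with a median of -0.58, and DESeq2 called 3. The part of these cells in the levels of the T-cell genes was not tested. The keratin genes *Krt8*, *Krt18* and *Krt7* were under the filter. Set against *Csf1r* of macrophages in the same library, the CD3 chains came to 7.21, 15.6 and 9.59 counts per 1000 counts in MCT2 CO and 7.44, 2.18 and 28.1 in MCT2 KO. The low and the high library therefore stood apart with no scaling to library size as well.

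**Figure D5:**
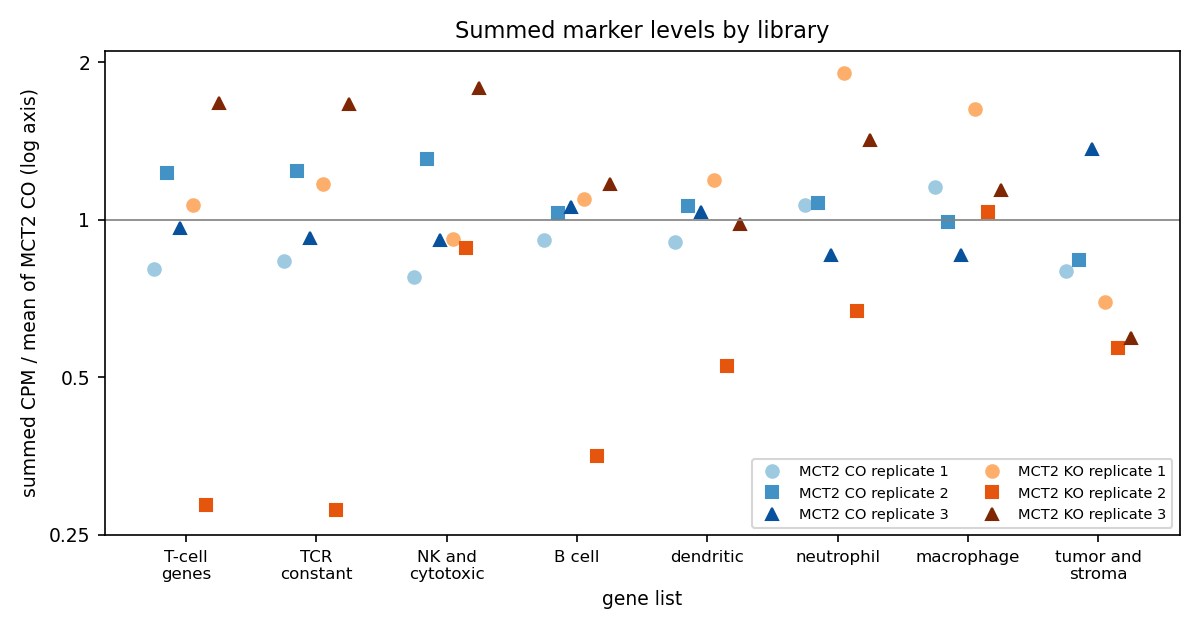
Summed CPM of each gene list in every library, divided by the MCT2 CO mean of that list, on a log axis, with symbols for the 6 libraries. The T-cell genes and the receptor constant regions of MCT2 KO replicate 2 lie far below 1, as do its B-cell genes, while its macrophage genes lie near 1.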

How the data were processed

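RNA of CD11b+ cells, selected with magnetic beads from collagenase-digested tumors, was turned into stranded poly-A libraries and read on a HiSeq instrument. Per the labels and the methods, the authors checked reads by FastQC (0.12.0) and MultiQC (1.28), mapped them with STAR (2.7.11b) against GRCm38 and deposited raw counts per gene from featureCounts (2.1.1), not normalized and not pooled. The annotation, the feature type and the strand setting are not given in the sources used here. The lengths in the table are whole gene spans, and its positions differ from those of GENCODE M21 on GRCm38, so positions and exon lengths were taken from GENCODE M21 by Ensembl identifier. Symbols came from the table for 21728 genes and from GENCODE M21 for 3938.

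Groups and replicate numbers came from the sample titles. Low genes were removed with filterByExpr (minimum count 10, minimum total 15), and the rest were scaled by TMM and tested with edgeR 4.0.16 (R 4.3.3) without covariates, with Benjamini-Hochberg adjustment over the 13485 genes kept. Standard errors were taken from the test's F statistic. For single values, two-sided exact permutation tests were run. Log2 CPM for the likeness measure used a prior count of 2. Replicates of a group differed by more than sampling noise. Whether each preparation came from 1 mouse is not given in the sources used here, so p-values measure the spread between preparations.

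The genes and lists were chosen with earlier results of these data known. Named genes were the 10 T-cell genes, *Slc16a7*, the 4 genes of highest mean CPM of each T-cell list and the 2 of each marker list, the 5 nearest genes, and any called gene. *Ccdc22*, *Ppp1r3f*, *Csf1r*, *Gzma*, *Prf1* and genes named for missing counts were added after their values were seen. The γ-chain constant regions were not analysed here. Alternatives were DESeq2 1.42.0, limma-voom (limma 3.58.1), other scalings and filters, a looser threshold, a replicate block and each library left out.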

Additional observations from a re-analysis of the deposited data

How the results depend on the processing

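None of the 10 T-cell genes and none of the 45 further T-cell genes was called under any alternative run. Over all genes, 0 were called by edgeR's quasi-likelihood test, 2 by it without the filter on low counts, 79 by DESeq2 on the same genes and 95 by DESeq2 without that filter. DESeq2 called *Slc16a7* in both fits, and edgeR did not. Leaving out single libraries, 0 to 2 were called, the 2 without MCT2 KO replicate 2. In the same fits, the log2 fold changes ranged from -0.74 to 0.90 for *Cd3e*, -0.69 to 0.79 for *Cd3d*, -0.76 to 0.77 for *Cd3g*, -0.85 to 1.03 for *Cd8a*, -0.92 to 0.51 for *Cd8b1*, -1.07 to 0.023 for *Cd4*, -0.69 to 0.015 for *Lat*, -0.95 to 0.49 for *Cd28* and -0.70 to 0.35 for *Ctla4*, all of which changed sign, and from -0.85 to -0.45 for *Foxp3*, which did not. The lowest value came without MCT2 KO replicate 3 for 8 of these genes and without MCT2 KO replicate 1 for *Cd4* and *Foxp3*, and the highest without MCT2 KO replicate 2 for all 10. The log2 ratio of the summed level of the 10 genes was 0.010 and ranged from -0.56 to 0.45. By limma-voom the log2 fold change was -0.37 for *Cd3e*, -0.46 for *Cd3d*, -0.40 for *Cd3g*, -0.61 for *Cd8a* and -0.53 for *Cd28*. It was below 0 by that method for the rest of the 10 genes too. For *Cd8b1* it was 0.006 and 0.010 by DESeq2 on the same and on all genes, and for *Cd28* it was -0.008 with upper-quartile scaling and -0.003 with the stricter filter. The cause of these changes of sign was not tested.

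The sample titles do not say whether the replicate numbers pair the libraries. Deviations from the group means were correlated across genes at 0.22, -0.25 and -0.16 between same-numbered libraries 1 to 3. Libraries with unlike numbers gave values from -0.21 to 0.29, so these correlations cannot decide whether the libraries are paired. With the replicate block, no gene was called and the log2 fold changes were -0.028 for *Cd3e*, -0.10 for *Cd3d*, -0.065 for *Cd3g*, -0.094 for *Cd8a* and -0.32 for *Cd28*. Those of the rest of the 10 T-cell genes were below 0 too.

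The genes described are low, with 12 to 663 counts per library. For the CD3 and CD8 genes, *Cd4*, *Cd28* and *Ctla4*, counting error is small beside the spread between MCT2 KO libraries, which is what limits the comparison. For *Foxp3*, the Poisson intervals of MCT2 KO replicates 2 and 3 overlapped, at 2.19 to 3.36 and 2.44 to 3.87 CPM. Those of *Lat* in MCT2 KO replicates 1 and 3 did so too, at 1.45 to 2.62 and 2.12 to 3.46 CPM. With 3 libraries a group, permutation cannot give a p under 0.1.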

Other observations

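The genes ranked 6 to 10 in likeness to the CD3 chains, after the 5 named above, were *Trac*, *Ifng*, *Gimap3*, *Zap70* and *Icos*, and they are given as values chosen after they were seen. *Ifng*, which encodes interferon gamma, had 1.07, 3.12 and 2.37 CPM in MCT2 CO replicates 1 to 3 and 2.31, 0.491 and 7.67 CPM in MCT2 KO replicates 1 to 3. Its estimate was 0.67 on the log2 scale (edgeR adjusted p = 0.823). *Icos*, a costimulatory receptor, had 3.14, 4.69 and 4.44 CPM in MCT2 CO and 3.19, 0.921 and 6.63 CPM in MCT2 KO. *Xcr1*, a chemokine receptor of the dendritic cells that cross-present antigen to CD8 T cells, ranked 13, with 2.94, 3.65 and 2.75 CPM in MCT2 CO and 4.61, 1.07 and 6.83 CPM in MCT2 KO.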
